A study of Mus musculus with 2 samples.

Results

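Havcr1, Spp1, Clu and Sox9 are genes that injured kidney tubules are known to switch on, and they were followed here across the cell types of the postischemic mouse kidney. They are 4 of the 32285 genes counted, and each matched 1 gene in the files. They were listed by name and not by a cutoff on a measured value, but with earlier results of these data known. Havcr1 encodes KIM-1, a membrane receptor for phosphatidylserine with which injured proximal tubule cells take up dead cells. Spp1 encodes osteopontin, a secreted ligand of integrins and CD44. Clu encodes clusterin, a secreted chaperone that binds misfolded proteins. Sox9 encodes a transcription factor of nephron development that surviving tubule cells express again during repair.

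After ischemia, tubule cells lose part of their transport program, and survivors of the proximal tubule dedifferentiate, clear debris and repopulate the nephron. The segments differ in how much ischemia harms them. The late proximal tubule of the outer medulla is known as the most vulnerable part, while the thick ascending limb and the distal nephron contribute secreted proteins to the urine even without injury.

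Single-cell libraries were made from the kidney of 1 mouse given saline (control) and 1 mouse given JPI-289 at 100 mg/kg. JPI-289 inhibits poly(ADP-ribose) polymerase (PARP), an enzyme family that responds to DNA breaks, and was injected into the peritoneal cavity just before reperfusion. Both animals were male C57BL/6 mice aged 9 weeks, both underwent bilateral renal ischemia-reperfusion injury, and both kidneys were taken 24 h later, so neither library is from an uninjured kidney. With 1 mouse per group there is no replicate, and every interval below covers counting error at 95% only, not the spread between mice.

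Cells were called from all barcodes, which left 3726 control and 5027 JPI-289 cells with medians of 2070.5 and 1872 UMIs (unique molecular identifiers, each 1 counted RNA molecule). The 2 libraries shared 23 cell barcodes. Clusters were named from marker lists, and all 4 genes and 45 other injury genes were kept out of the clustering. Cells like the proximal tubule (PT) numbered 1777 in control and 1632 in JPI-289, those like the thick ascending limb (TAL) 270 and 402, those like the distal convoluted and connecting tubule (DCT and CNT) 223 and 250, those like collecting duct (CD) principal cells 76 and 381, those like CD intercalated cells 44 and 61, and those like the thin limb 102 and 76. All 24 PT markers were detected in PT-like cells of both libraries. Among the 13 classes compared, 24 in control and 23 in JPI-289 were at their highest there. Of the 5 early PT (S1) markers this held for 5 and 4, but of the 8 late PT (S3) markers for only 4 in each library. Highest in their own class were 4 and 5 of 8 thin limb markers and 6 and 9 of 10 TAL markers. For DCT and CNT they were 8 and 10 of 11. For CD principal cells they were 9 of 10 in each library, and for CD intercalated cells 10 and 9 of 11. Control and JPI-289 cells of the PT fell almost entirely into different clusters, those numbered 1, 4 and 14 for control and 0, 8 and 10 for JPI-289. The other classes of the tubule were each a single cluster holding cells of both libraries. Barcodes under 100 UMIs, which hold free RNA rather than cells, gave for each gene the level that free RNA carries.

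A level is the share of the gene in the UMIs of the class, given as CPM, on which 10000 CPM is 1% of the UMIs, and a ratio as log2 of JPI-289 over control. Each library's UMIs were summed over the class, so deep cells weigh more. Past 2-fold means a log2 ratio of at least 1 or at most -1 for a gene with at least 20 UMIs over both libraries.

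**Figure D1:**
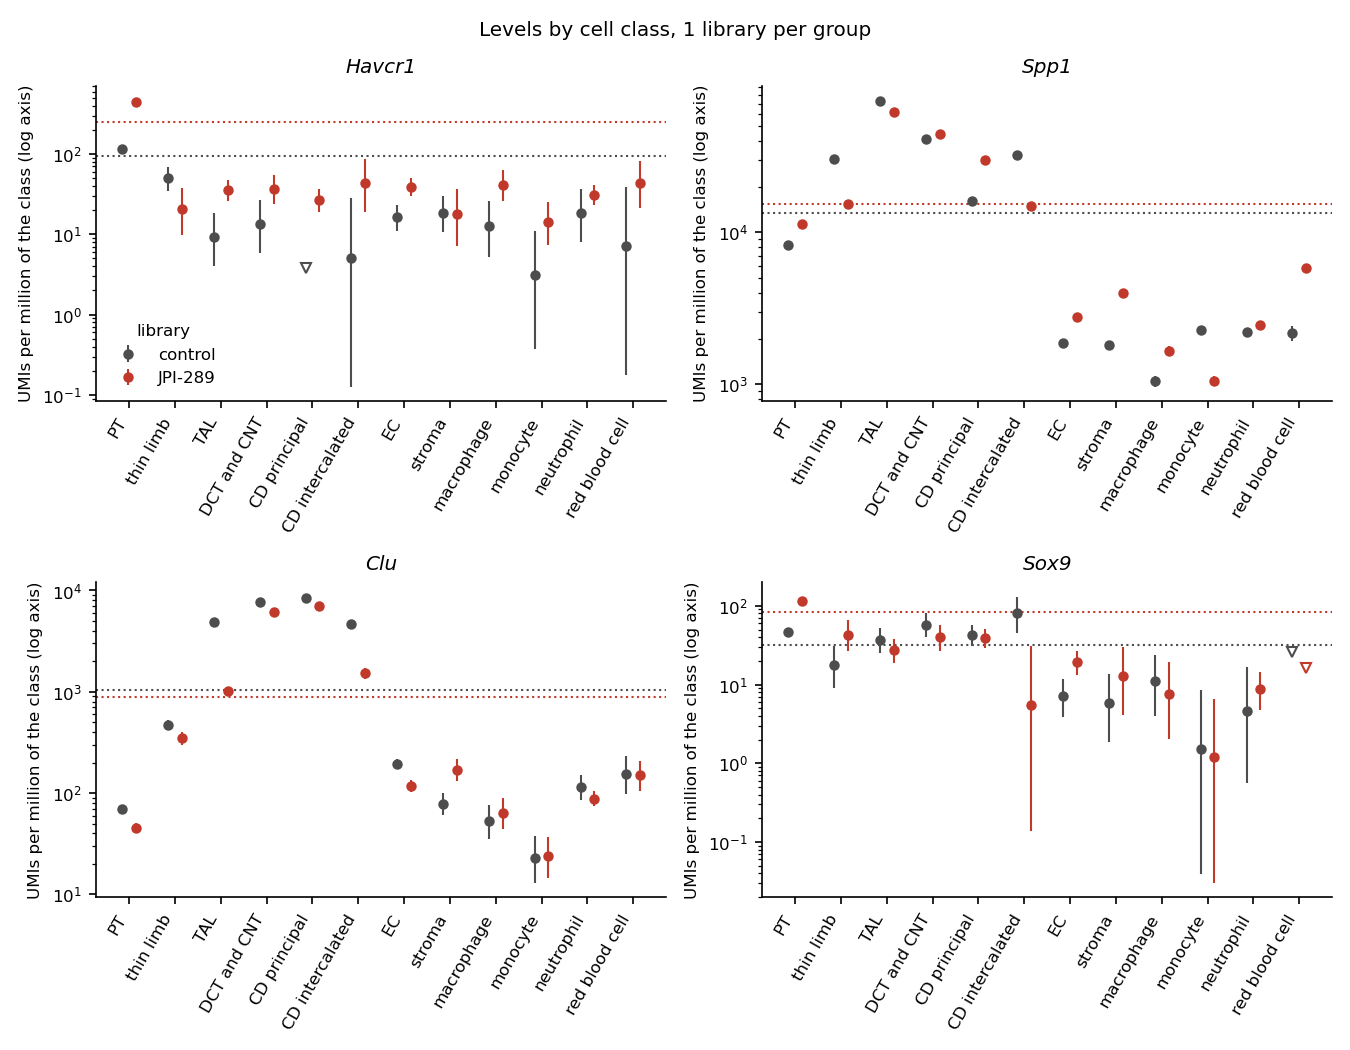
Level of each gene (CPM, log axis) in 12 cell classes of the control (grey) and JPI-289 (red) libraries, with exact Poisson intervals. Open triangles mark the upper limit where no UMI was counted, and dotted lines the level of each library's free RNA. Havcr1 stands highest in PT, Spp1 in TAL and Clu in the distal classes.

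Havcr1 was a gene of the PT in both libraries. PT-like cells held 87.0% of the Havcr1 UMIs of all control cells and 87.2% of those of JPI-289 cells, against 48.5% and 40.9% of all UMIs. The level in PT-like cells was 114.5 CPM in control (927 UMIs, interval 107.3 to 122.1) and 450.6 CPM in JPI-289 (3293 UMIs, 435.3 to 466.2). The 2 intervals are far apart, and the log2 ratio was 1.98 (1.87 to 2.08), a 3.93-fold higher level in JPI-289. Of the 11292 genes measured in PT-like cells, 9.13% were past 2-fold higher and 23.8% past 2-fold lower, and Havcr1 stood at rank 182 from the top. The median log2 ratio of all these genes was -0.19.

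The gene lies at chr11:46735080-46779578 on the plus strand of GRCm38, with 4 annotated transcripts of up to 8 exons. RefSeq gives 3 starts for Havcr1, the first at 46740223, which lies downstream of the start of the GENCODE gene. The stretch chr11:46739973-46740060 comes before that RefSeq start but does not reach it, since it was ended where a GENCODE exon of Havcr1 begins, and it lies within the GENCODE gene outside its exons. It is shown because Havcr1 had the highest PT ratio of the 4 genes.
Havcr1 before a RefSeq start: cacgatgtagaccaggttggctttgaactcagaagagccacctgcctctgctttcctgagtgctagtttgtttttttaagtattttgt
No match to any of 6 motifs searched on both strands was found in these 88 bases. The letters searched were TGANTCA for AP-1, TGTGGT for RUNX, TTCNNNGAA for STAT, GGAATG for TEAD, TATAAA for the promoter box of that name and GAANNTTC for HSF. Nothing follows from this about the factors.

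Within the PT the level of Havcr1 depended on the segment. PT-like cells of each library were clustered alone and called early (S1) or late (S3) from transporter and enzyme lists that hold none of the 4 genes. A sub-cluster was scored over the median PT sub-cluster of its own library, so early and late are relative calls within a library. Late sub-clusters had early-list scores of -1.13 and -3.16 in control, but of -0.12 for both in JPI-289. Whether a call marks the same segment in both libraries was not tested. In control, Havcr1 was at 47.8 CPM in early cells (190 UMIs, 41.3 to 55.1), at 51.6 CPM in cells that matched neither list (125 UMIs, 42.9 to 61.4) and at 360.5 CPM in late cells (612 UMIs, 332.5 to 390.2). In JPI-289 the same order was 239 CPM in early cells (613 UMIs, 220.4 to 258.7), 175.7 CPM in cells of neither list (299 UMIs, 156.4 to 196.8) and 782.8 CPM in late cells (2381 UMIs, 751.7 to 814.9). Late cells stood highest in both libraries, and the intervals of early cells and cells of neither list overlapped in control but not in JPI-289.

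Late PT-like cells carried 57.5% of all Havcr1 UMIs of the control cells and 63.1% of those of the JPI-289 cells, while holding 10.2% and 17.0% of all UMIs. The log2 ratio was 2.32 (2.08 to 2.56) in early cells, 1.77 (1.46 to 2.08) in cells of neither list and 1.12 (0.99 to 1.25) in late cells. Past 2-fold higher were 7.38% of 10191 genes in early cells and 17.4% of 9199 in late cells. The ratio over all PT-like cells joins segments in different proportions, as late cells were 9.06% of PT-like cells in control (161 cells) and 27.5% in JPI-289 (448 cells). Their median depths also differed, at 7166 and 2712.5 UMIs, and the part of depth and makeup in the ratios was not tested.

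The sub-clusters behind these segments showed the same split. The 6 JPI-289 sub-clusters ranged from 158.5 to 805.1 CPM, and the 8 control sub-clusters from 30.5 to 492.8 CPM, the highest in late cells in each library. The control maximum comes from 10 cells with 8 Havcr1 UMIs, and the other late sub-cluster of control, with 151 cells, was at 359.2 CPM. The sub-cluster of most cells in each library (495 control and 456 JPI-289 cells) matched neither list and had genes of other cells among its leading 10, such as Hbb-bs, S100a9 and Umod in control and Aqp2 and Clu in JPI-289. It was at 42.7 CPM of Havcr1 in control and 219.96 CPM in JPI-289.

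**Figure D2:**
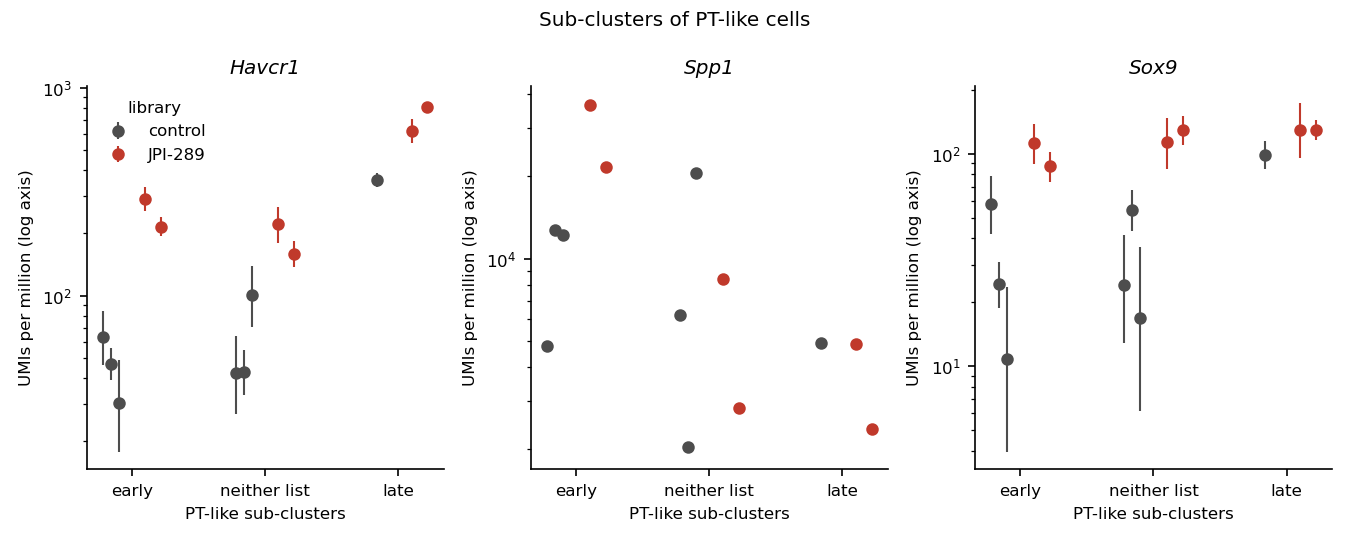
Level (CPM, log axis) of Havcr1, Spp1 and Sox9 in each sub-cluster of at least 50 PT-like cells, by segment and library, with exact Poisson intervals. Havcr1 is highest in late sub-clusters of both libraries, and Spp1 is highest in early JPI-289 sub-clusters.

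Per cell at equal depth, late cells again stood above early cells in both libraries. Each cell of at least 1000 UMIs was thinned to 1000, and shallower cells were left out, which took away 445 of the 1777 PT-like cells in control (46 early, 8 late) and 495 of the 1632 in JPI-289 (71 early, 110 late). Of the cells kept, 4.41% of early control cells (23 of 521, 2.82 to 6.55%) and 22.6% of early JPI-289 cells (91 of 402, 18.6 to 27.0%) had a Havcr1 UMI. Among late cells the shares were 30.7% in control (47 of 153, 23.5 to 38.7%) and 43.5% in JPI-289 (147 of 338, 38.1 to 49.0%), with overlapping intervals. Without thinning, the late shares were 68.9% and 66.1%, at the different depths given above. Neutrophils, which should lack the gene, had a share of 1.13% in control (2 of 177) and 2.41% in JPI-289 (14 of 582), with median depths of 1964 and 2034 UMIs.

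**Figure D3:**
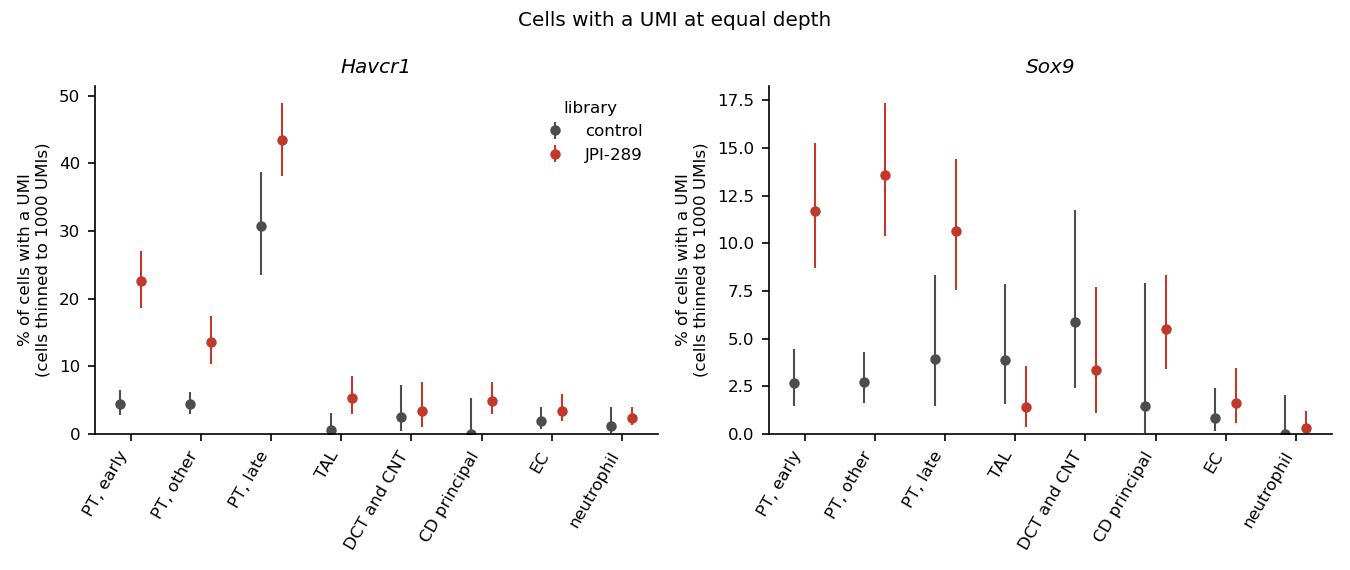
Share of cells with a UMI of Havcr1 or Sox9 after each cell was thinned to 1000 UMIs, with exact binomial intervals, for PT segments, 3 distal classes, endothelial cells (EC) and neutrophils. Havcr1 is seen in 30.7% of control and 43.5% of JPI-289 late PT-like cells, with overlapping intervals, and in 1.13% and 2.41% of neutrophils.

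In most named classes outside the PT, Havcr1 was near the level of cells that should lack it. Cells of unnamed clusters are not among these classes. They stood above all of them, at 125.8 CPM in control (62 cells, 18 UMIs) and 154.9 CPM in JPI-289 (399 cells, 175 UMIs). The thin limb of the control stood highest of the other named classes of at least 50 cells. Its interval (34.5 to 69.7 CPM) met those of neutrophils and red blood cells but not those of the remaining ones. In control Havcr1 ranged over the named classes of at least 50 cells outside the PT from 0 to 49.8 CPM. In JPI-289 it ranged from 14.2 to 117.4 CPM, the latter in 51 podocyte-like cells with 9 UMIs. Immune, endothelial and red blood cells of JPI-289 (14.2 to 44.1 CPM) overlapped TAL (35.6 CPM, 43 UMIs) and DCT and CNT (36.9 CPM, 26 UMIs). The exception was monocytes, whose interval (7.36 to 24.9 CPM) lay below that of TAL (25.7 to 47.9 CPM). Shares of TAL cells with a UMI at equal depth were 0.556% in control (1 of 180) and 5.32% in JPI-289 (15 of 282), and the free RNA of JPI-289 carried more Havcr1, 253.1 against 95.2 CPM. The free RNA estimated within the cells of JPI-289 would carry 7.42 CPM in TAL and 14.3 CPM in DCT and CNT, less than was counted. This estimate runs too high in some classes, as it would carry more Havcr1 than was counted in control TAL (24.3 against 9.27 CPM) and in JPI-289 EC (63.3 against 39.0) and stroma (44.3 against 17.9), so it is a guide only.

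The ratios of these classes rest on few UMIs. TAL had 8 control and 43 JPI-289 UMIs, a log2 ratio of 1.87 (0.83 to 3.24) beside 8.65% of genes past 2-fold higher and 10.6% lower in that class. Calling cells by total UMIs alone took it to 0.86, short of 2-fold. DCT and CNT had 8 and 26 UMIs, a log2 ratio of 1.38 (0.25 to 2.79) beside 8.18% higher and 9.67% lower, and a minimum of 1000 UMIs per cell took it to 0.84, also short of 2-fold. The thin limb ran the other way, with 34 control and 10 JPI-289 UMIs (49.8 and 20.4 CPM) and a log2 ratio of -1.24 (-2.47 to -0.24), beside 10% of genes past 2-fold higher and 13% lower. Equal weight of each cell turned that ratio to 0.18, and leaving out cells over 20% mitochondrial UMIs took it to -2.89. CD principal cells had no Havcr1 UMI in control and 36 in JPI-289, 8.59-fold higher against a floor of 3 counts over the control class. With the counting error of both libraries the exact lower limit was 6.63-fold. In this class 8.45% of genes were past 2-fold higher and 13.7% lower. The JPI-289 level of 26.8 CPM was under the 28.5 CPM that the free RNA estimated in these cells would carry, 11.3% of their UMIs against 0.345% in control. At equal depth, 0 of 68 control CD principal cells had a UMI, which allows a share of up to 4.41%, and 4.95% of 364 JPI-289 cells had one.

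Spp1 had its highest levels in the loop and distal nephron, while the PT, with more cells, held a share of its UMIs close to that of the TAL alone. Of the Spp1 UMIs in cells, PT-like cells held 31.8% in control and 32.0% in JPI-289, and TAL-like cells 30.2% and 29.0%. TAL-like cells were highest in both libraries, with 73163 CPM in control (63121 UMIs) and 62058 CPM in JPI-289 (75020 UMIs), which is 7.32% and 6.21% of all their UMIs. DCT and CNT followed with 40833 and 44242 CPM. The thin limb was at 30246 CPM in control and 15283 in JPI-289, CD intercalated cells at 32082 and 14809, CD principal cells at 16176 and 29913, and PT at 8203 and 11362. Neighbours in this order differed beyond counting error except the thin limb and CD intercalated cells of JPI-289, whose intervals overlapped.

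Among named classes of at least 50 cells, Spp1 was lower outside the tubule than in any tubule class. Within the PT this did not hold for every segment. Late PT-like cells of JPI-289 (2670 CPM) stood below its podocytes (7724), red blood cells (5816) and stroma (4003). Their interval overlapped that of its EC (2761 CPM). Macrophages, monocytes, neutrophils, EC and red blood cells ranged from 1052 to 2294 CPM in control and from 1059 to 5816 CPM in JPI-289, while free RNA stood at 13394 and 15315 CPM. A Spp1 UMI was found at equal depth in 80.8% of control and 80.6% of JPI-289 neutrophils, against 88.4% and 87.2% of PT-like cells. The shares were 70.1% and 72.7% of EC and 46.3% and 63.8% of macrophages, so a Spp1 UMI was common in every one of these classes.

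Spp1 is annotated at chr5:104435118-104441050 on the plus strand of GRCm38, with 7 transcripts of up to 8 exons. Gm42793, a gene of the same strand, overlaps it and is no row of the count files. RefSeq gives 2 starts, and the 250 bases before the first, chr5:104434861-104435110, are shown because Spp1 has the highest levels of the loop and early PT. Capitals mark the motif matches.
Spp1 upstream: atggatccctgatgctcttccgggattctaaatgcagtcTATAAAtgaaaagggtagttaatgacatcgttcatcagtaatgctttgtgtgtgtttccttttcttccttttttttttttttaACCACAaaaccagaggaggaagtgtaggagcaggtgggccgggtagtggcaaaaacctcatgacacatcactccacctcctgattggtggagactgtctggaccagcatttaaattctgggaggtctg
Of the 6 motifs, the letters TATAAA matched once, from 211 to 206 bases before the start, and the RUNX letters once on the reverse strand, from 128 to 123 bases before it. Among 32851 RefSeq windows of the same length, 12.4% held TATAAA on either strand and 14.0% the RUNX letters. A match is a run of letters and not a site shown to be used.

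Early and late PT-like cells moved apart in Spp1. In early cells the level was 11141 CPM in control (44263 UMIs, 11038 to 11246) and 26293 CPM in JPI-289 (67446 UMIs, 26095 to 26492), a log2 ratio of 1.24 (1.22 to 1.26). In late cells it was 4907 CPM in control (8331 UMIs, 4803 to 5014) and 2670 CPM in JPI-289 (8121 UMIs, 2612 to 2729), a log2 ratio of -0.88 (-0.92 to -0.83). JPI-289 was thus higher in early cells, past 2-fold, and lower in late cells, short of 2-fold. Cells of neither list were at 5697 and 4391 CPM (-0.38), and PT-like cells as a whole at a log2 ratio of 0.47 (0.46 to 0.48). Equal weight of each cell gave 1.63 in early and -0.44 in late cells, the same directions.

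The split was also seen per cell. At 1000 UMIs per cell, the median early control cell had 6 Spp1 UMIs and the median early JPI-289 cell 23, while the medians of late cells were 4 and 2. The control sub-clusters of early cells were at 4768, 12178 and 12689 CPM and those of JPI-289 at 21632 and 36641 CPM, so the early sub-clusters of the 2 libraries did not overlap. A control sub-cluster of 204 cells that matched neither list was at 20569 CPM, close to the lower of the early JPI-289 sub-clusters, and led by Spp2 and Spp1. Late sub-clusters were at 4891 and, from 10 cells, 6591 CPM in control, and lower at 2376 and 4846 CPM in JPI-289. Of these only the intervals of 4891 CPM (4786 to 4998) and 4846 CPM (4622 to 5078) overlapped between the libraries.

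In the tubule classes outside the PT, Spp1 ratios lay below that of early PT-like cells and ran in both directions. CD principal cells had a log2 ratio of 0.89 (0.86 to 0.91), DCT and CNT 0.12 (0.09 to 0.14), TAL -0.24 (-0.25 to -0.22), the thin limb -0.98 (-1.02 to -0.95) and CD intercalated cells -1.12 (-1.18 to -1.05). Of these only the CD intercalated value was past 2-fold, from 44 control and 61 JPI-289 cells, where 13.4% of genes were past 2-fold higher and 8.34% lower. The depth of CD principal cells differed widely, with medians of 9497 UMIs in control and 1539 in JPI-289. Equal weight of each cell brought their ratio to 0.42, the thin limb's to 0.15 and that of CD intercalated cells to -0.40.

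**Figure D4:**
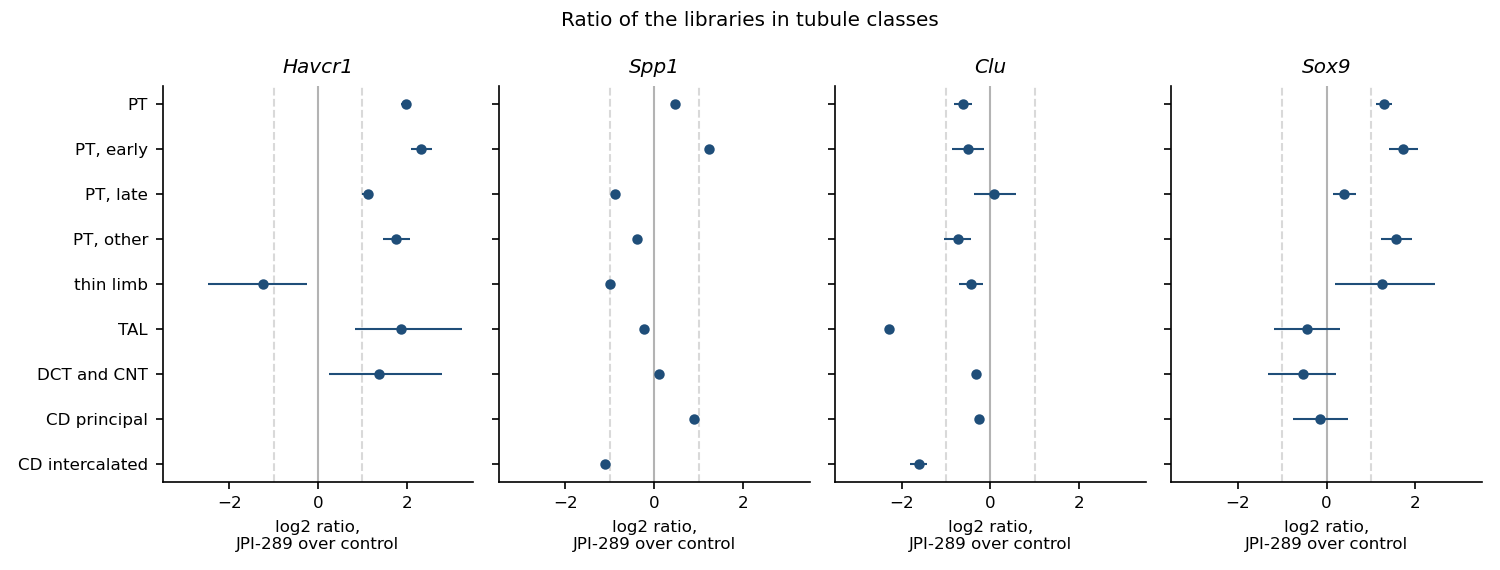
Log2 ratio of JPI-289 over control of each gene in tubule classes and PT segments, with exact binomial intervals; dashed lines mark 2-fold. Values with 3 or fewer UMIs in either library are not drawn. Havcr1 and Sox9 are higher in JPI-289 in PT and its segments, and Spp1 splits between early and late PT. Clu is lower in every group but late PT, past 2-fold only in TAL and CD intercalated cells.

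Clu was a gene of the distal nephron. CD principal cells were highest among the classes of at least 50 cells, with 8475 CPM in control (8157 UMIs) and 7086 CPM in JPI-289 (9531 UMIs), followed by DCT and CNT with 7671 and 6172 CPM. Clu lies at chr14:65968483-65981547 on the plus strand, with 9 transcripts of up to 9 exons. Neither Clu nor Sox9 has an entry in the promoter table used.

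The lowest Clu ratio of the tubule classes was that of the TAL. TAL-like cells had 4913 CPM in control (4239 UMIs, 4767 to 5064) and 1014 CPM in JPI-289 (1226 UMIs, 958.2 to 1073), a log2 ratio of -2.28 (-2.37 to -2.18), where 10.6% of 7747 genes were past 2-fold lower. Clu stood at rank 7657 of them. Equal weight of each cell gave -1.51. At 1000 UMIs per cell, 58.9% of control TAL cells (106 of 180, 51.3 to 66.2%) and 44.7% of JPI-289 TAL cells (126 of 282, 38.8 to 50.7%) had a Clu UMI, and the 90th percentile of cells was 9 UMIs in control and 3 in JPI-289. Both the share of cells and the amount in the highest cells were lower in JPI-289.

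CD intercalated cells had 4674 CPM in control (933 UMIs) and 1523 CPM in JPI-289 (276 UMIs), a log2 ratio of -1.62 (-1.82 to -1.42). The share of cells with a UMI was 51.7% in control (15 of 29) and 30.4% in JPI-289 (14 of 46), with overlapping intervals. DCT and CNT had a log2 ratio of -0.31 (-0.37 to -0.25) and CD principal cells -0.26 (-0.30 to -0.22). Their values lay closer to 0 than those of the TAL and CD intercalated cells, and this difference was not tested.

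The Clu level of PT-like cells was close to the estimated level of free RNA, and the part of free RNA in it was not tested. They were at 70.0 CPM in control and 45.7 in JPI-289, while the free RNA estimated from red blood cell, neutrophil, TAL and CD genes in these cells would carry 56.9 and 40.5 CPM. Neutrophils were at 114.8 and 88.4 CPM. The log2 ratio of PT-like cells, -0.62 (-0.82 to -0.42), compares values close to that background. Clu over all tubule-like cells had a log2 ratio of -0.22 (-0.25 to -0.19), beside 6.17% of genes past 2-fold higher and 20.3% lower, and its sign changed with equal weight of each cell (0.0093) and with resolution 0.5 (0.13), where TAL, DCT and CNT went unnamed.

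A few urothelium-like cells held a large part of the Clu counts. The 15 such cells of the control held 6930 Clu UMIs, 26.1% of all Clu UMIs in control cells, and 3 cells of JPI-289 held 1918, 10.3%. Their levels were 13729 and 31970 CPM, from median depths of 36615 and 24692 UMIs. A Clu total over a whole kidney library thus counts these cells too.

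In TAL and in DCT and CNT, cells with Clu also had more Spp1. At 1000 UMIs per cell, for which 104 of 223 control and 102 of 250 JPI-289 cells of DCT and CNT and 90 of 270 and 120 of 402 of TAL were too shallow, DCT and CNT cells with a Clu UMI had on average 44.6 Spp1 UMIs in control (97 cells), and those without had 6.14 (22 cells). In JPI-289 the means were 46.1 (110 cells) and 8.13 (38 cells). TAL cells with Clu had 83.0 Spp1 UMIs on average in control (106 cells) and those without 38.4 (74 cells), against 69.7 (126 cells) and 45.9 (156 cells) in JPI-289. The direction was the same in both libraries of these classes. CD principal cells of JPI-289 showed no such difference, with means of 21.0 in 347 cells with Clu and 20.7 in 17 without. Cells of 1 library share its free RNA and are not replicates. Cells misassigned to a class could carry less of both genes, a part that was not tested.

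**Figure D5:**
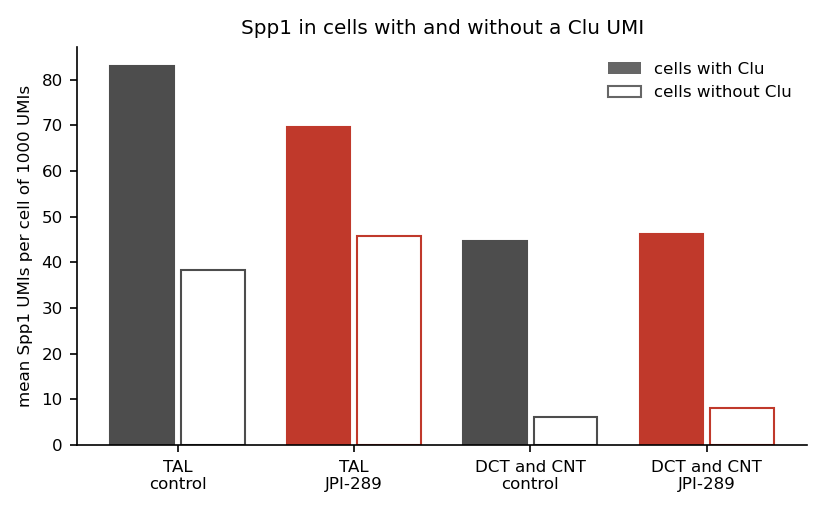
Mean number of Spp1 UMIs in cells of 1000 UMIs with (filled) and without (open) a Clu UMI, in TAL and in DCT and CNT of each library. In all 4 pairs the cells with Clu have the higher mean, for example 44.6 against 6.14 in control DCT and CNT.

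Sox9 was spread over the tubule. In control, DCT and CNT (57.8 CPM, 34 UMIs), PT (47.2 CPM, 382 UMIs), CD principal cells (42.6 CPM, 41 UMIs) and TAL (37.1 CPM, 32 UMIs) had overlapping intervals from one to the next. In JPI-289 the PT stood alone at 116 CPM (848 UMIs, 108.4 to 124.1), above the thin limb (42.8 CPM, 21 UMIs), DCT and CNT (39.7 CPM, 28 UMIs), CD principal cells (38.7 CPM, 52 UMIs) and TAL (27.3 CPM, 33 UMIs). Immune cells were at 10.96 CPM or less in both libraries and red blood cells had no UMI of it. CD intercalated cells had 16 Sox9 UMIs in 44 control cells (80.2 CPM, 45.8 to 130.2) and 1 in 61 JPI-289 cells (5.52 CPM), under the minimum of 20 UMIs for a ratio to count. Sox9 lies at chr11:112782224-112787760 on the plus strand, with 1 transcript of 3 exons.

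The ratio of Sox9 in PT-like cells was 1.30 on the log2 scale (1.12 to 1.48), a 2.46-fold higher level in JPI-289 and rank 583 of 11292 genes. By segment it was 1.72 (1.40 to 2.06) in early cells, from 28.7 to 94.7 CPM, and 1.56 (1.22 to 1.92) in cells of neither list, from 42.1 to 124.6 CPM. In late cells it was 0.40 (0.14 to 0.67), from 97.8 to 129.2 CPM. Late cells had the highest Sox9 level of the 3 in control, in sums where deep cells weigh more. Equal weight of each cell raised the late value to 0.92. The intervals held 0 in TAL (-0.44), DCT and CNT (-0.54) and CD principal cells (-0.14), but not in CD intercalated cells (-3.32, -9.25 to -1.17, from the 16 and 1 UMIs above), while the thin limb was at 1.26 (0.19 to 2.44) from 12 and 21 UMIs.

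Shares of cells with a Sox9 UMI were low at 1000 UMIs. They were 2.85% of PT-like cells in control (38 of 1332, 2.03 to 3.90%) and 12.0% in JPI-289 (137 of 1137, 10.2 to 14.1%), against 0% of 177 and 0.344% of 582 neutrophils. The 0 of the control allows up to 1.69%. In JPI-289 early, late and other PT-like cells were alike, with 11.7%, 10.7% and 13.6% and overlapping intervals. Early and late cells of control overlapped too. Among those without Havcr1, 4.72% of late cells (5 of 106, 1.55 to 10.7%) and 2.81% of early cells (14 of 498, 1.55 to 4.67%) had a Sox9 UMI. Among those with Havcr1, 1 of 47 late and 0 of 23 early cells had one.

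The share of PT-like cells with Sox9 did not differ beyond counting error between cells with and without Havcr1 at this depth. In JPI-289, 13.01% of the 292 PT-like cells with Havcr1 had a Sox9 UMI (9.38 to 17.4%), and so did 11.7% of the 845 without (9.62 to 14.1%). In control the shares were 1.01% of 99 cells with Havcr1 and 3.001% of 1233 without, again with overlapping intervals. A Spp1 UMI was somewhat less frequent beside Havcr1, in 82.2% of cells with it and 89.0% without in JPI-289, and the late cells that carry most Havcr1 had the lowest Spp1 of the JPI-289 segments. Within late and within early cells the Spp1 shares with and without Havcr1 overlapped in both libraries.

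Outside the tubule some ratios were past 2-fold too. In EC, Havcr1 had 32 and 67 UMIs (16.3 and 39.0 CPM, log2 ratio 1.25) and Sox9 14 and 33 UMIs (7.11 and 19.2 CPM, 1.41), beside 5.18% of genes past 2-fold higher and 18.6% lower. The free RNA estimated in EC would carry 12.1 and 63.3 CPM of Havcr1 and 4.04 and 21.1 CPM of Sox9. Havcr1 in macrophages, with 7 and 22 UMIs, had a log2 ratio of 1.62 beside 11% of genes higher and 17.2% lower.

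Spp1 was past 2-fold higher in stroma (1.15, beside 11.8% of genes higher and 13.9% lower), red blood cells (1.42, beside 17.4% and 6.64%) and podocytes (1.46, beside 17.6% and 15.2%), and lower in monocytes (-1.11, beside 10.4% and 12.6%). Clu was past 2-fold higher in stroma (1.10) and in urothelium-like cells (1.22, from 15 and 3 cells). In unnamed cells Spp1 (-1.51, 1788 and 4962 UMIs) and Clu (-3.57, 290 and 193 UMIs) were past 2-fold lower. The larger unnamed cluster (56 control and 301 JPI-289 cells) scored highest on the DCT and CNT list. The share of all genes past 2-fold was not counted in urothelium-like and unnamed cells. None of the 4 genes was past 2-fold in neutrophils, where 11.6% of genes were higher and 10.4% lower. The part of free RNA in these ratios was not tested.

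Sums over every barcode, which no calling or clustering touches, gave log2 ratios of 1.54 (1.48 to 1.60) for Havcr1, 0.20 (0.20 to 0.21) for Spp1, -0.47 (-0.49 to -0.45) for Clu and 1.28 (1.17 to 1.38) for Sox9. Called cells held 31.2% and 41.0% of the Havcr1 UMIs of the 2 libraries and 58.0% and 60.5% of the Clu UMIs. In these sums more cells of a type and more RNA per cell cannot be told apart.

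The patterns over classes differed too. Over 24 points (classes of at least 50 cells in each library), Pearson's r of log2(CPM + 10) was 0.82 between Spp1 and Clu, 0.68 between Spp1 and Sox9, 0.50 between Clu and Sox9, 0.39 between Havcr1 and Sox9, 0.16 between Havcr1 and Spp1 and -0.22 between Havcr1 and Clu. The points of a library share its free RNA and those of a class its cell type, so these values are descriptions. The genes most like Havcr1 among 9951 were Fga (r of 0.88), Acaa1b, Fgg, Cyp2a5 and Acsm3 (0.85). Fga and Fgg encode chains of fibrinogen, Acaa1b a peroxisomal thiolase and Cyp2a5 a cytochrome P450. For Spp1 they were Paqr5 (0.93), Elovl7, Eva1a, Wwc1 and Spint2, and for Clu Tmem213 (0.94), Wfdc2, Cdh3, Krt7 and Defb1, of which Krt7 is a keratin of simple epithelia and Defb1 a defensin of the distal nephron. For Sox9 they were Gm15411 (0.86), Hdac6, Bckdha, Mpc2 and Krt10. With 1 CPM added in place of 10, 3 of the 5 were shared for Havcr1, 3 for Spp1, 5 for Clu and 3 for Sox9.

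Other injury genes of the tubule were more often higher than lower in PT-like cells of JPI-289. This list and those below were chosen with earlier results of these data known, so their counts are descriptions only. Of 43 measured, 16 were past 2-fold higher and 7 lower, with a median log2 ratio of 0.50. Of all genes there 9.13% were higher and 23.8% lower, with a median of -0.19. Plin2, which coats lipid droplets, went from 552.7 to 6597 CPM (log2 ratio 3.58) and Krt20, a keratin, from 39.8 to 730.4 CPM (4.20). Fabp1, a fatty acid carrier, went from 33.7 to 3.69 CPM (-3.17) and Cxcl1, a neutrophil chemokine, from 143.9 to 23.8 CPM (-2.59). Igfbp7 was at 932.9 and 850.4 CPM. In early cells 15 of 38 were past 2-fold higher and 6 lower, with a median of 0.60, beside 7.38% and 29.1% of all genes and a median of -0.34. In late cells 19 of 36 were higher and 8 lower, with a median of 1.29, beside 17.4% and 14.3% of all genes and a median of 0.12. In TAL 4 of 36 were higher and 11 lower, with a median of -0.59, beside 8.65% and 10.6% and a median of -0.03. In CD principal cells 6 of 39 were higher and 5 lower, with a median of -0.43, beside 8.45% and 13.7% and a median of -0.06.

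Genes of the Havcr1 family and of clearing dead cells lay on both sides in PT-like cells. Of 13 measured 2 were past 2-fold higher and 5 lower, with a median of -0.81, beside 9.13% and 23.8% of all genes, and 2 were lower once ratios were centred on the median gene. Rac1, a GTPase of the cytoskeleton, was at 195.4 and 522.2 CPM (1.42) and Anxa5, which binds phosphatidylserine, at 117.7 and 238.5 CPM (1.02). Mertk, an uptake receptor, was at 21.5 and 4.38 CPM (-2.28), and its bridging ligand Gas6 at 131.4 and 30.4 CPM (-2.11).

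Of 12 measured genes among the receptors and processing enzymes of Spp1, 3 were past 2-fold higher and 3 lower, with a median of -0.31. Of all genes in PT-like cells 9.13% were higher and 23.8% lower. The integrin chain Itgb1 was at 126.9 and 158.5 CPM (0.32) and Itgb8 at 105.9 and 15.3 CPM (-2.78). The cross-linking enzyme Tgm2 was at 155.9 and 116.2 CPM (-0.42) and Enpp1, which makes pyrophosphate, at 12.6 and 4.79 CPM (-1.38). Src, a kinase that acts below integrins, was at 10.4 and 40.9 CPM (1.97) and Ptk2, focal adhesion kinase, at 18.04 and 29.97 CPM (0.73).

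Of 17 measured genes around Clu, 3 were past 2-fold higher and 6 lower, with a median of -0.18, beside 9.13% and 23.8% of all genes. Lrp2, a receptor that takes up clusterin from the filtrate, and Cubn were among the lowest. Lrp2, megalin, was at 429.8 CPM in control and 59.9 in JPI-289 (-2.84), and Cubn, cubilin, at 123 and 9.30 CPM (-3.72). Both are PT markers, so they also served to name these cells. Lrp8, another receptor, was at 1.73 and 15.9 CPM (3.15, from 14 and 116 UMIs). Of the small heat shock proteins, Hspb1 was at 53.4 and 255.3 CPM (2.26) and Cryab at 342.7 and 627.1 CPM (0.87).

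Genes of the Sox9 family, Notch and Yap pathways and nephron progenitors counted 20 measured, of which 3 were past 2-fold higher and 6 lower, with a median of -0.17. Sox4, another SOX factor, was at 32.0 and 124.1 CPM (1.95), Cdh6, a cadherin of the developing PT, at 4.08 and 27.2 CPM (2.72), and Pax8, a factor of the tubule lineage, at 78.4 and 145.5 CPM (0.89). The Yap target Ccn1 was at 319.9 and 55.6 CPM (-2.52) and Hbegf, a ligand of the EGF receptor, at 117 and 38.6 CPM (-1.60). The counts of the lists in PT-like cells are to be read beside the 9.13% and 23.8% of all genes. The lists overlap, as Sox4, Cdh6, Ccn1, Hbegf and Cryab also belong to the other injury genes above, so their counts are not independent.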

How the data were processed

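The deposited files hold the authors' raw UMI counts of each gene in every barcode, per the submitters' processing notes from Cell Ranger 5.0.1 and mm10. Cells were called here by total UMIs (above a threshold 10-fold under the 99th percentile among the 3000 largest) and, among barcodes of at least 500 UMIs, by their difference from the profile of barcodes ranked 45000 to 90000 (10000 simulations, false discovery rate 0.01). Cells over 50% mitochondrial UMIs were left out. The libraries hold 38328760 (control) and 35548396 (JPI-289) UMIs, of which 43.5% and 50.2% lay in cells. Cells were scaled to 10000 UMIs, and 2000 variable genes, 30 principal components and 20 neighbours went into Leiden clustering at resolution 1, with no correction between libraries. A cluster took the name of its leading marker list with a score (mean log2 ratio over the median cluster) of at least 0.75, a lead of 0.5, 3 markers detected and, under a score of 2, an own marker among its 10 leading genes. It stayed unnamed where another class had more markers among those 10 genes. PT segments needed a score of 0.4 and a lead of 0.5, scored over the median PT sub-cluster of the same library. These rules were set after the clusters were seen, and the members and lists were chosen with earlier results of these data known. Unnamed clusters held 1.66% of control and 7.94% of JPI-289 cells. Scrublet called 2 of 8753 cells, so it did not work, and no doublets were removed.

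UMIs were summed per class and library, with 0.5 added for ratios, exact Poisson intervals for levels and exact binomial (Clopper-Pearson) intervals for ratios and shares. A count of 0 was bounded by 3 counts. Free RNA in a class was estimated from genes of red blood cells and neutrophils and, except in tubule classes other than PT, of TAL and CD. The median over these gene sets was taken, without the set of the class itself. This estimate is too high in some classes. No test was made, with 1 library per group. Named genes are, taken from PT-like cells, where genes with at least 100 UMIs gave, for every list, the 2 most counted and the 2 highest and 2 lowest ratios, and per member the 5 with the highest r among genes of at least 200 UMIs. Calling, intervals and thinning were tested on simulated data. Coordinates are from GENCODE vM21 and upstream sequences from RefSeq (GRCm38.p6), whose table held 2 of the 4 members. Clustering used scanpy 1.11.5 with leidenalg 0.10.2, and intervals scipy 1.17.1, under Python 3.11.15.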

Additional observations from a re-analysis of the deposited data

Results flagged for a closer look

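The Havcr1 log2 ratio of PT-like cells exceeded that of thin limb-like cells by 3.22, with opposite signs (1.98 and -1.24). The thin limb value rests on 34 and 10 UMIs, and the difference was not tested. Spp1 ran in opposite directions in CD principal cells (0.89) and CD intercalated cells (-1.12), a difference of 2.002 that was not tested. Spp1 also ran in opposite directions in early (1.24) and late (-0.88) PT-like cells, a difference of 2.12 that was not tested.

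Cells with over 50% mitochondrial UMIs, 539 in control and 391 in JPI-289, entered no comparison of cell classes above, and only the sums over every barcode include them. Summed over them, the log2 ratio was 1.40 for Havcr1 (33 and 60 UMIs), 0.36 for Spp1 (5102 and 4457 UMIs) and 1.77 for Sox9 (7 and 17 UMIs), each with an interval above 0, and -0.41 for Clu (231 and 118 UMIs, -0.75 to -0.09). These ratios are given because the cells were left out of every class, and the part of free RNA in the ratios was not tested. Havcr1 was at 21.6 and 57.6 CPM and Sox9 at 4.59 and 16.3 CPM, while the free RNA estimated in these cells would carry 13.4 and 40.4 CPM of Havcr1 and 4.48 and 13.5 CPM of Sox9.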

How the results depend on the processing

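In PT-like cells, 13 alternatives each left the sign of all 4 log2 ratios as it was. Equal weight of each cell gave 2.33 for Havcr1, 0.65 for Spp1 and 1.80 for Sox9, and centring on the median of all genes 2.17, 0.66 and 1.49. Cells called by total alone gave 1.85 for Havcr1, 0.43 for Spp1 and -0.38 for Clu. For Spp1, nuclear scaling gave 0.45, free RNA subtracted 0.50, at most 20% mitochondrial UMIs 0.38, and the top 5% of doublet scores left out 0.45. For Clu, free RNA subtracted gave -1.35 and resolution 2 -1.01.

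Over all tubule-like cells, equal weight gave 2.07 for Havcr1, 0.38 for Spp1, 0.0093 for Clu (sign turned) and 1.23 for Sox9. Centring gave 2.01, 0.50, -0.031 and 1.13. Resolution 0.5 gave 0.38 for Spp1, 0.13 for Clu (sign turned) and 1.12 for Sox9. Resolution 2 gave 0.35 for Spp1 and -0.15 for Clu, clustering each library alone 0.29 and -0.090, and calling by total alone 0.28 and -0.35. For Spp1, nuclear scaling gave 0.30 and at most 20% mitochondrial UMIs 0.27. The remaining 70 of 104 values for PT-like and tubule-like cells stayed inside the main interval. In the thin limb, equal weight turned Havcr1 to 0.18, Spp1 to 0.15 and Clu to 0.42, and clustering each library alone turned Clu to 3.09.

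For the lists in PT-like cells, centring left 2 genes of the Havcr1 list lower and 5 of the Sox9 list higher. A minimum of 100 UMIs left 1 gene of the Spp1 list higher. A minimum of 5 UMIs gave 5 higher and 5 lower for the Spp1 list and 10 lower for the Sox9 list. No paired analysis was possible because each group has 1 library and no test was made. With 1 mouse per group, the spread between mice is unknown, and Havcr1 and Sox9 outside the PT rest on few UMIs per class.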
